A study of Homo sapiens with 6 samples.

Results

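The collagen genes were followed in cells with and without oxaliplatin, a platinum drug that binds DNA. The cells were HCT116, a line established from a human colorectal carcinoma. The collagens were taken as every gene whose symbol has the form COL, a number, A and a number, which gave 44 of the 27942 genes in the deposited table. RNA was sequenced from 3 samples labelled NT, which received no drug, and 3 labelled OXA, which received 0.5 µM oxaliplatin for 24 h. All 6 were grown in RPMI with 10% serum, and the libraries were stranded and made from poly(A) RNA. This line was the only model, and it grows as epithelial cells without stroma. The labels number the samples of each group 1 to 3 without saying whether they came from separate experiments, so p-values measure the spread between these samples, which may be technical.

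Collagens are built of α chains that wind around each other in trimers, and each gene encodes a single chain. Fibrillar collagens form the banded fibrils of connective tissue, FACIT collagens (fibril-associated collagens with interrupted triple helices) sit on the surface of those fibrils, and type IV collagen forms the network of basement membranes. In the gut wall most fibrillar collagen is made by fibroblasts, whereas epithelial cells contribute to the basement membrane beneath them and carry membrane-spanning collagens at its attachment sites.

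Counts per library lay between 32979521 and 40967880. Normalized counts are raw counts scaled by TMM, a factor that makes libraries comparable on most genes. Of the 44 collagen genes, 21 had enough counts to be tested and 23 did not. NT library 1 stood apart from its group, with a chi-square per gene of 86.2 and 78.4 against NT libraries 2 and 3 beside 22.0 between those. By the same measure OXA library 1 did not, with 27.3 and 19.8 against OXA libraries 2 and 3 beside 30.5 between those. Across 13675 tested genes the log2 difference between NT library 1 and the mean of NT libraries 2 and 3 fell with the GC content of the transcript (Pearson's r = -0.67, Spearman's rho = -0.76), and OXA library 1 showed r = -0.39 and rho = -0.56 against its own group. The collagens are GC-rich, with a median GC content of 56.1% (43.97% to 67.4%) among the 21 tested, beside 48.2% over the 13675 genes. NT library 1 was below the mean of the other NT libraries for 20 of these 21 genes, with a median log2 difference of -0.80, and OXA library 1 was below the mean of the other OXA libraries for 16, with a median of -0.26. Of the 13675 genes, 6866 were lower in NT library 1 (median -0.0026) and 6186 in OXA library 1 (median 0.025). Over the 21 genes, the differences ran with GC content at r = -0.72 and rho = -0.85 in NT. In OXA they ran at r = -0.45 and rho = -0.61. These correlations are descriptions across genes that share the same libraries.

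**Figure D1:**
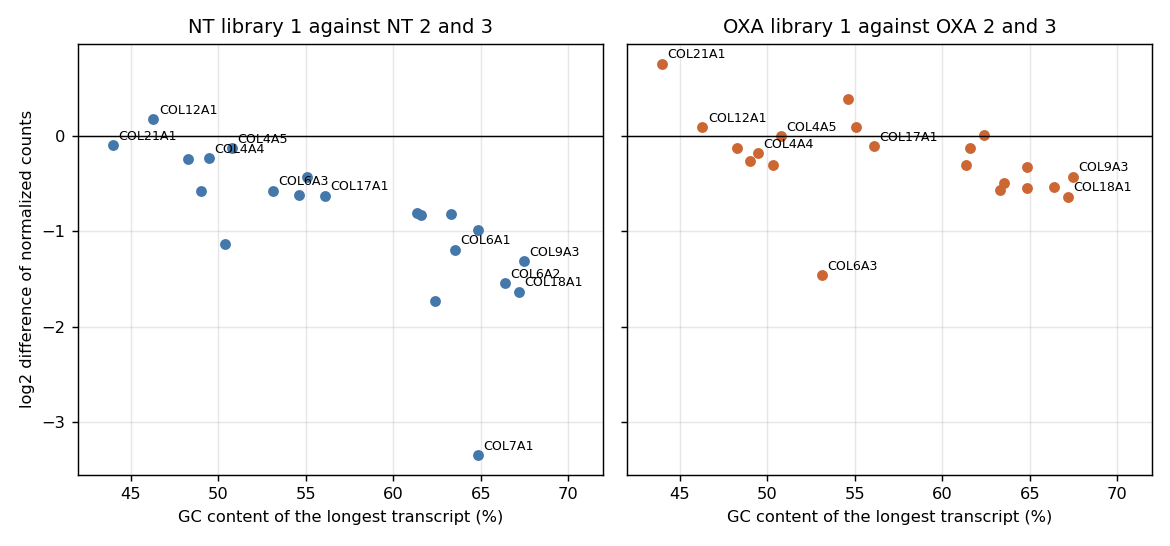
Log2 difference of normalized counts between library 1 and the mean log2 of libraries 2 and 3 of the same group (vertical axis) against GC content of the longest transcript in percent (horizontal axis), for the 21 tested collagen genes, with NT on the left and OXA on the right. In NT the points fall from near 0 at COL12A1 to -1.63 at COL18A1 and -3.35 at COL7A1, and in OXA the slope is shallower.

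Among the 21 tested collagens, 3 rose in OXA and 0 fell at an edgeR adjusted p under 0.05. They were COL17A1, COL12A1 and COL4A5, each of a different structural class. Over all 13727 genes tested, 2.78% were called higher and 2.29% lower. With the additional threshold of a 1.5-fold change, 2 collagens were higher (1.97% of all genes), because COL4A5 rose 1.41-fold. At an unadjusted p under 0.05, 4 collagens were higher (10.7% of all genes) and 2 lower (11.1%). The 6 libraries fell into separate groups for 4 collagens that were higher in OXA (14.5% of all genes) and 2 that were lower (14.4%), and the groups overlapped for 15. The median log2 fold change of the 21 was 0.18, beside 0.023 over all genes tested. Of the 21, 13 were positive, beside 53.3% of all genes. The values with all 6 libraries lay between -1.05 and 1.39. Without NT library 1, COL27A1, COL6A1, COL9A2, COL9A3, COL16A1, COL7A1 and COL5A2 turned negative, from -0.402 (COL7A1) to -0.00214 (COL5A2). The negative ones stayed negative. In DESeq2 the counts were 3 higher and 1 lower, against 4.63% of all genes in each direction, while edgeR with a block for the replicate number gave 3 higher (12.1% of all genes) and 1 lower (10.9%). The gene called lower in both was COL4A4. DESeq2 gave no adjusted p for COL15A1, COL21A1, COL7A1 and COL6A3, so these could not be called there. Its shares are over all genes tested, with or without an adjusted p. With 1 library left out, 1 to 3 of the 21 were higher and 0 or 1 lower. Over all genes the same fits called 66 to 623 higher and 19 to 571 lower, beside 381 and 315 with all 6 libraries. Of the 21, COL12A1 was the single one called without NT library 2 or any OXA library. COL5A1, which is outside the 21, passed the filter and was called higher without NT library 1 (adjusted p = 0.0458 in edgeR) or OXA library 3 (adjusted p = 0.0488 in edgeR). Fewer libraries then have to reach the minimum count, and COL5A1 passed through OXA alone (raw counts 14, 16 and 7, beside 1, 1 and 2 in NT). These calls are no support beyond those counts. In bulk RNA, fewer cells of a kind and less RNA per cell cannot be told apart.

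**Figure D2:**
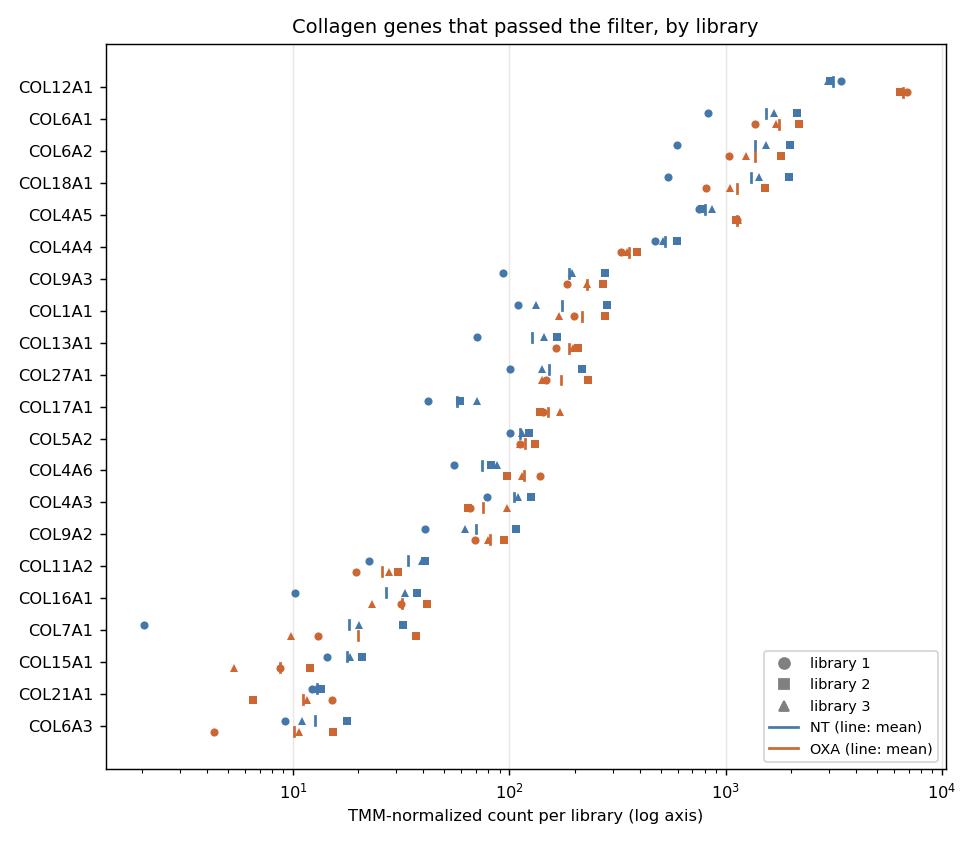
TMM-normalized counts (horizontal log axis) of the 21 tested collagen genes in the 3 NT and 3 OXA libraries. Symbols mark the library number and vertical lines the group means. COL12A1 and COL17A1 show a clear gap between the groups, while for COL6A1, COL6A2, COL18A1 and COL9A3 library 1 is the lowest of both groups.

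**Figure D3:**
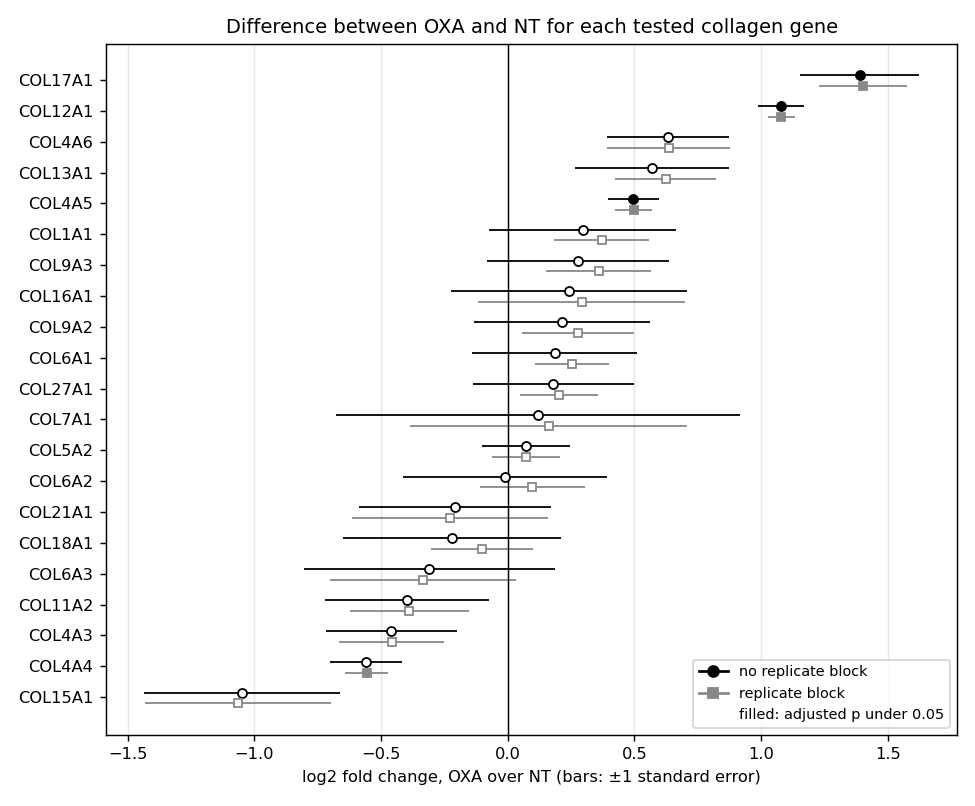
Log2 fold change of OXA over NT (horizontal axis) with ±1 standard error for each tested collagen gene, from the edgeR fit without a replicate block (circles) and with it (squares). Filled symbols have an adjusted p under 0.05. COL17A1, COL12A1 and COL4A5 are filled in both fits and COL4A4 only with the block.

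The FACIT collagen COL12A1, whose chains bind along type I collagen fibrils, was the most abundant of the 3 that rose. It had 3393, 3046 and 2963 normalized counts in NT libraries 1 to 3 and 6909, 6353 and 6596 in OXA libraries 1 to 3. Every OXA value lay above every NT value, and the spread within each group was small beside the gap. The means were 3134 ± 228 (SD, n = 3) and 6619.6 ± 279, a log2 fold change of 1.08 (SE 0.090, adjusted p = 0.00229 in edgeR). With any single library left out it lay between 1.01 and 1.14 and was called each time. The gene lies on chr6:75084326-75206267 of GRCh38, minus strand, and is less GC-rich (46.3%) than most collagens. COL12A1 took 46.0%, 25.1% and 29.1% of all collagen counts in NT libraries 1 to 3 and 53.4%, 42.1% and 48.8% in OXA libraries 1 to 3. All collagens together took 0.0279% ± 0.0069 of the counts of an NT library and 0.0380% ± 0.0036 of an OXA library. Without COL12A1, the summed normalized counts of the collagens were 6763 ± 2590 in NT and 7234 ± 1387 in OXA, a difference smaller than either SD. These totals include the GC-rich genes that were low in NT library 1.

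The bases just upstream of the 3 genes that rose, and of the COL4A3 and COL4A4 pair, are shown because the results turn on these members. They are RefSeq sequences on GRCh38.p14, printed 5′ to 3′ in the direction of transcription and ending at the base before the gene's RefSeq start, which for COL12A1 lies inside the gene as GENCODE draws it. Capitals mark every match, on either strand, to the core promoter element TATAAA, the Sp1 element GGGCGG, the TEAD factor element GGAATG, the AP-1 element TGACTCA, the box CCAAT and the consensus decamer of p53. No marked match overlaps another. At least 1 window was held for 17 of the 21 tested collagens. The 27305 genes with windows had 35116 windows, and a gene was counted where any of its windows held the match. For each printed gene, 1 window is shown. The window of COL12A1, at chr6:75206054-75206303, holds GGGCGG on the opposite strand and GGAATG on its own strand:
COL12A1: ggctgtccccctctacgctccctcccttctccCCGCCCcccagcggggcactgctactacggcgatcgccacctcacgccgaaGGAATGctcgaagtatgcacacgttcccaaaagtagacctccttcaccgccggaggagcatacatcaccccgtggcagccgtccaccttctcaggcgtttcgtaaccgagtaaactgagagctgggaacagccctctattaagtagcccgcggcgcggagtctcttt
GGAATG was found for 2 of the 17 collagens, COL12A1 and COL11A2, and in 14.3% of all genes with windows of the same length. GGGCGG was found for 12 of the 17 and 46.2% of all genes, and TGACTCA for 0 of the 17 and 5.19%. A match is a run of letters and not a measured binding site.

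The transmembrane collagen COL17A1, a component of the hemidesmosomes that anchor epithelial cells to the basement membrane, showed the highest fold change of any tested collagen. Its normalized counts were 41.9, 59.2 and 71.2 in NT and 143, 138 and 171 in OXA, in the order of libraries 1 to 3. The lowest OXA value was above the highest NT value. The means were 57.4 ± 14.7 and 151 ± 17.7, and the log2 fold change was 1.39 (SE 0.23, adjusted p = 0.0207 in edgeR). The size stayed between 1.21 and 1.55 with 1 library left out, but the call was lost without NT library 2 or any single OXA library, with adjusted p between 0.0636 and 0.0910. Without both libraries numbered 1 the log2 fold change was 1.25 (adjusted p = 0.0538 in edgeR). COL17A1 lies on chr10:104031286-104085880, minus strand. Its upstream window, chr10:104085881-104086130, holds TATAAA on its own strand, CCAAT on the opposite strand and a match to the p53 decamer, which begins 55 bases before the gene's start:
COL17A1: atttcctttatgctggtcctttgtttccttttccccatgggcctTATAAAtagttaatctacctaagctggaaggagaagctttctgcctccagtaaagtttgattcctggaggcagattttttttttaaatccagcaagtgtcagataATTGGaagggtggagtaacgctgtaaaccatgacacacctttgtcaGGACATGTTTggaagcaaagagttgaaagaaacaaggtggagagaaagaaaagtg
The p53 decamer was found for 1 of the 17 collagens and 6.80% of all genes, TATAAA for 5 of the 17 and 13.0%, and CCAAT for 4 of the 17 and 37.0%. The other tested transmembrane collagen, COL13A1, had 70.5, 166 and 145 normalized counts in NT and 163, 208 and 196 in OXA. The groups overlapped by a small margin, at NT library 2 and OXA library 1, and the log2 fold change was 0.57 (SE 0.30, adjusted p = 0.330 in edgeR). NT library 1 was 1.13 below the other NT libraries on the log2 scale for COL13A1, and without that library its log2 fold change was 0.28 (adjusted p = 0.374 in edgeR), or 0.38 without both libraries numbered 1 (adjusted p = 0.280 in edgeR).

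Type IV collagen genes lie in pairs that start head to head and are read in opposite directions. COL4A5 and COL4A6 start 341 bases apart on chromosome X, COL4A3 and COL4A4 start 171 bases apart on chromosome 2, and the annotated 5′ ends of COL4A1 and COL4A2 overlap on chromosome 13. Both genes of the X pair were higher in OXA by their means, both of the chromosome 2 pair were lower, and the chromosome 13 pair was near the limit of detection. Of the 4 genes tested, 1 was called higher, 0 lower and 3 were not called.

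COL4A5, whose chain enters both kinds of minor type IV trimers, had 751, 779 and 865 normalized counts in NT and 1125, 1114 and 1138 in OXA. The 3 OXA libraries were close together and all above NT. The means were 799 ± 59.3 and 1126 ± 11.8, a log2 fold change of 0.50 (SE 0.10, adjusted p = 0.0363 in edgeR). This call was lost without any single library other than NT library 1 (adjusted p between 0.0837 and 0.161), without both libraries numbered 1 (0.0766), with no filter on low counts (0.0562) and in limma on the values the authors normalized, where the log2 fold change was 0.29 (adjusted p = 0.290). Its partner in the pair, COL4A6, had 55.2, 82.1 and 87.6 in NT and 138, 97.0 and 114 in OXA. The groups did not overlap, but the spread was wide beside the difference, and the log2 fold change of 0.63 (SE 0.24) had an edgeR adjusted p of 0.179. The COL4A5 gene spans chrX:108439838-108697545, plus strand, and the window upstream of it, chrX:108439588-108439837, lies between the starts of the pair and holds CCAAT on both strands:
COL4A5: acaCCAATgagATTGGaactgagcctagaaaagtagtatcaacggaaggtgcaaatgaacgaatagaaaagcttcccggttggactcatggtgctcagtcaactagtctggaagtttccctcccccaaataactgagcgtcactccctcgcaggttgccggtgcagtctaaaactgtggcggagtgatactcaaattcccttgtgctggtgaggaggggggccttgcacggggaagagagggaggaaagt

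COL4A4 went the other way by its values, with 469, 592 and 511 normalized counts in NT and 327, 389 and 351 in OXA. All OXA values were below all NT values, and the means were 524 ± 62.6 and 356 ± 31.5. The log2 fold change was -0.56 (SE 0.14), with an edgeR adjusted p of 0.0660, and 0.0110 with the replicate block and 0.0169 in DESeq2. In limma on the values the authors normalized it was -0.33 (adjusted p = 0.380). Left out singly, NT library 1 was the 1 library without which COL4A4 was called (log2 fold change -0.63, adjusted p = 0.0237 in edgeR). COL4A3 had 78.7, 126 and 109.5 in NT and 66.0, 64.3 and 97.1 in OXA, so that OXA library 3 lay within the range of NT. Its log2 fold change was -0.46 (SE 0.26, adjusted p = 0.357 in edgeR). The stretch of 170 bases between the starts of COL4A4 and COL4A3, chr2:227164454-227164623, holds GGGCGG in both orientations and is printed along COL4A3:
COL4A3: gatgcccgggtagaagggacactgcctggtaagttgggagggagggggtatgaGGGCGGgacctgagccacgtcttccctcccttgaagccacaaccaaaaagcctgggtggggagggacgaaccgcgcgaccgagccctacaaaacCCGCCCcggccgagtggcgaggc
COL4A3, COL4A4 and COL4A5 chains assemble together in one trimer, and COL4A5 assembles with COL4A6 in another. Per kilobase of exon, COL4A5 exceeded COL4A4 by log2 ratios of 0.67, 0.39 and 0.75 in NT libraries 1 to 3 and 1.78, 1.51 and 1.69 in OXA, which did not overlap. On average COL4A5 was 1.52 times COL4A4 in NT and 3.16 times in OXA. Against COL4A3 the ratio was 8.03 in NT and 15.7 in OXA. These 2 ratios were chosen after their values had been seen. Their size depends on the length used, while the change between the groups does not. With the longest transcript as length, the NT levels were 3.40 for COL4A5, 1.46 for COL4A4 and 0.362 for COL4A3. The ratio of COL4A5 to its X-linked partner COL4A6 was 3.08 ± 0.29 in NT and 2.93 ± 0.25 in OXA on the log2 scale, a difference within 1 SD. With 3 libraries against 3, an exact two-sided permutation test cannot go below p = 0.1, and these ratios were not tested.

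**Figure D4:**
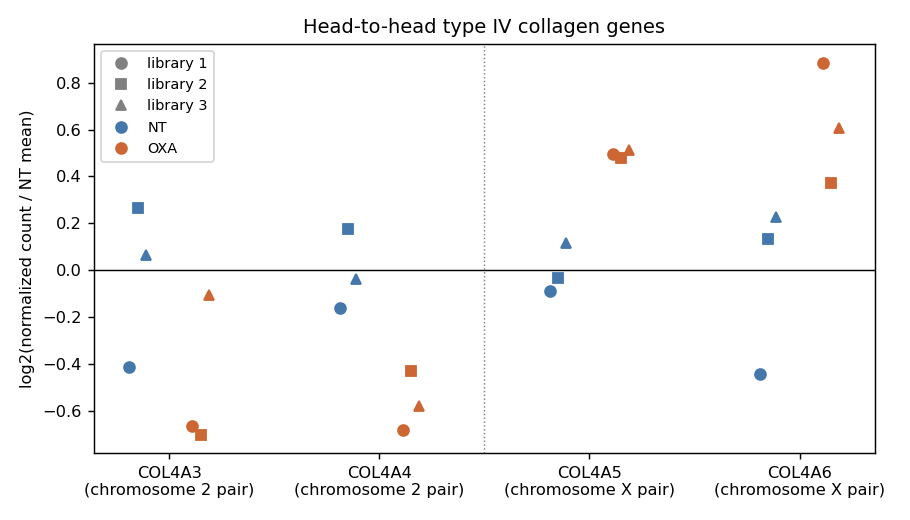
Log2 of the normalized count divided by the NT mean (vertical axis) for the 4 tested type IV collagen genes, with NT in blue, OXA in orange and symbols for the library number. The OXA points of COL4A5 and COL4A6 lie above all their NT points, those of COL4A4 lie below all of its NT points, and COL4A3 overlaps at OXA library 3.

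COL4A1 and COL4A2, which encode the chains of the type IV collagen found in nearly all basement membranes, had 1 to 10 and 1 to 3 raw counts per library and were not tested. The remaining network collagens, COL8A1, COL8A2 and COL10A1, were also below the filter.

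The fibrillar collagens were represented by 4 tested genes of 11, and none of the 4 was called in edgeR, DESeq2 or at an unadjusted p under 0.05. COL1A1, the main chain of type I collagen, had 109, 284 and 133 normalized counts in NT and 199, 277 and 170.2 in OXA, with library 2 highest in both groups and a log2 fold change of 0.30 (SE 0.37, adjusted p = 0.700 in edgeR) that ran from 0.050 to 0.80 with 1 library left out. COL1A2, whose chain joins COL1A1 in type I collagen, had 0 to 2 raw counts per library. COL5A2, a chain of the type V collagen that sets fibril diameter, varied little, with 100.2, 123 and 114 in NT and 111, 131 and 112 in OXA (log2 fold change 0.07, SE 0.17, adjusted p = 0.852 in edgeR). COL27A1, a fibrillar collagen of cartilage, had 100.2, 217 and 141 in NT and 147, 231 and 142 in OXA (adjusted p = 0.799 in edgeR). COL11A2, a chain of the type XI collagen of cartilage, had 22.5, 40.5 and 39.2 in NT and 19.5, 30.5 and 27.6 in OXA (adjusted p = 0.540 in edgeR). In both of these genes the groups overlapped.

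COL5A1, the partner of COL5A2 in type V collagen, was below the filter. Reads were few, with raw counts of 1, 1 and 2 in NT against 14, 16 and 7 in OXA. All OXA libraries were above all NT libraries. The OXA mean, 12.9 ± 5.92 normalized counts, was 4.35 times a floor of 3 counts per library. OXA library 3 was the lowest of the OXA libraries, at 6.24. With no filter on low counts the gene had an edgeR adjusted p of 0.0364, so that COL12A1, COL17A1 and COL5A1 were the 3 collagens called higher there, beside 1.71% of the 19353 genes with a count. COL5A3, another type V chain, was counted 0, 7 and 4 times in NT against 9, 24 and 13 in OXA, which did not overlap, and in that fit had an edgeR adjusted p of 0.210. COL3A1 had 6, 7 and 2 in NT and 0, 9 and 6 in OXA.

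The beaded-filament collagens COL6A1 and COL6A2, chains of the type VI collagen that surrounds cells as microfibrils, were the most abundant collagens per kilobase in NT, and neither differed beyond its spread. COL6A1 had 826, 2134 and 1666 normalized counts in NT and 1369, 2190.4 and 1700.0 in OXA (log2 fold change 0.18, SE 0.33, adjusted p = 0.797 in edgeR). COL6A2 had 596, 1983 and 1527 in NT and 1034, 1799 and 1244 in OXA (log2 fold change -0.01, SE 0.40, adjusted p = 0.993 in edgeR). In both genes library 1 was the lowest and library 2 the highest of each group, and the NT libraries spanned more than the distance between the group means. NT library 1 was 1.19 below the other NT libraries for COL6A1 and 1.54 below for COL6A2 on the log2 scale, and their GC contents were 63.5% and 66.4%. Without NT library 1 the log2 fold changes were -0.12 for COL6A1 and -0.37 for COL6A2, and with trends on GC content and length taken out they were 0.065 and -0.14, with none of these called. The log2 ratio of COL6A1 to COL6A2 per kilobase of exon was 0.18 ± 0.21 in NT and 0.33 ± 0.086 in OXA. With the longest transcript as length, COL6A2 was the higher of the pair in NT. COL6A3, whose chain completes the type VI trimer, was the lowest of the tested collagens per kilobase, with 9.20, 17.7 and 10.95 normalized counts in NT and 4.33, 15.3 and 10.7 in OXA (adjusted p = 0.772 in edgeR).

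Among the other FACIT collagens, 4 were tested and none was called. COL9A3 and COL9A2, which join COL9A1 in the type IX collagen of cartilage, were both measured, while COL9A1 was at 0 in all 6 libraries. COL9A3 had 93.0, 276 and 194 normalized counts in NT and 185, 269 and 229 in OXA (adjusted p = 0.713 in edgeR), and COL9A2 had 40.9, 107 and 62.1 in NT and 69.2, 94.9 and 79.3 in OXA (adjusted p = 0.777 in edgeR). The pair kept a similar log2 ratio of COL9A2 to COL9A3 per kilobase, -1.20 ± 0.23 in NT and -1.28 ± 0.059 in OXA. COL16A1 had 10.2, 37.4 and 32.9 in NT and 31.4, 41.4 and 23.2 in OXA (adjusted p = 0.814 in edgeR). COL21A1 had 12.3, 13.5 and 12.8 in NT and 15.1, 6.54 and 11.6 in OXA (adjusted p = 0.804 in edgeR). The groups of all 4 genes overlapped.

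The multiplexins COL15A1 and COL18A1 are basement membrane collagens with many breaks in their helices, and COL18A1 is the source of the fragment endostatin. COL15A1 had the lowest fold change of any tested collagen, with 14.3, 20.8 and 18.3 normalized counts in NT and 8.66, 12.0 and 5.35 in OXA. The groups did not overlap, but at these low counts the log2 fold change of -1.05 (SE 0.39) had an edgeR adjusted p of 0.168. COL18A1 had 539, 1964 and 1426 in NT and 810.4, 1517 and 1049 in OXA, in which library 1 was again the lowest and library 2 the highest of each group (log2 fold change -0.22, SE 0.43, adjusted p = 0.818 in edgeR). Its GC content was 67.2%, and NT library 1 was 1.63 below the other NT libraries on the log2 scale. COL7A1, the collagen of the anchoring fibrils that tie the epithelial basement membrane to the tissue beneath, had 2.04, 32.2 and 20.1 in NT and 13.0, 37.1 and 9.80 in OXA. Its values in NT ranged from under the floor of 3 counts to the second highest of the 6, and its log2 fold change of 0.12 had a standard error of 0.80 (adjusted p = 0.952 in edgeR).

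A further fit with the block, added after the data had been seen, also took out the trend of every library with GC and length. Any difference between the groups that ran with GC or length was taken out too. The error of the fitted trends did not enter the p-values. In it, 5 of the 21 tested collagens were higher (25.8% of all genes) and 3 lower (17.9%). In both directions the share of the 21 was close to that of all genes, and whether collagens differ from other genes was not tested. COL12A1, COL17A1 and COL4A5 were joined by COL13A1 (log2 fold change 0.61, adjusted p = 0.0169 in edgeR) and COL4A6 (0.61, adjusted p = 0.0320 in edgeR). Those lower were COL4A4 (-0.52, adjusted p = 0.000509 in edgeR), COL18A1 (-0.32, adjusted p = 0.00404 in edgeR) and COL15A1 (-1.10, adjusted p = 0.0410 in edgeR). COL6A1, COL6A2, COL9A3 and the fibrillar collagens were not called in this fit either.

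Levels of the genes were compared as CPM on TMM-scaled library sizes, per kilobase of exon. In NT the order began with COL6A1 (7.74 ± 3.33, SD, n = 3), COL6A2 (7.13 ± 3.68), COL12A1 (4.62 ± 0.34) and COL18A1 (4.30 ± 2.36), and neighbours among these first 4 lay within 1 SD of each other. COL4A5 (1.87 ± 0.14), COL4A4 (1.23 ± 0.15) and COL9A3 (1.08 ± 0.53) followed, and COL6A3 was last at 0.0163 ± 0.0058. In OXA COL12A1 stood first at 9.75 ± 0.41, next to COL6A1 at 8.80 ± 2.08, which was within the spread of COL6A1. COL17A1 moved from place 14 (0.228 ± 0.059) to place 9 (0.600 ± 0.070). With the longest transcript as the length in place of all exons, 13 of the 21 levels in NT moved by more than 1 SD, and COL6A2 then stood before COL6A1.

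Of the 23 collagens below the filter, 14 never had more than 3 raw counts in a library, and 4 of these, COL6A5, COL9A1, COL19A1 and COL22A1, had 0 in all 6. The other 10 of the 14 were COL1A2, COL2A1, COL4A2, COL6A6, COL8A1, COL8A2, COL11A1, COL20A1, COL23A1 and COL24A1. The remaining 9 were COL3A1, COL4A1, COL5A1 and COL5A3, described above, and COL10A1, COL14A1, COL25A1, COL26A1 and COL28A1. COL14A1, a FACIT collagen of fibroblasts, was counted 4, 7 and 4 times in NT against 2, 5 and 4 in OXA. COL25A1 had 4, 2 and 4 in NT and 0, 0 and 0 in OXA, and with no filter an edgeR adjusted p of 0.131. COL26A1 had 2, 6 and 4 in NT and 2 in each OXA library, while COL10A1 and COL28A1 reached 4 counts in 1 library each. Differences among these genes were mostly not detectable at this depth.

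The other genes of collagen making and use were taken from 7 lists of 85 genes, written with earlier results of these data known. Of these, 84 were in the table and 67 were tested, of which 4 were higher (2.78% of all genes), 1 lower (2.29% of all genes) and 62 not called, with a median log2 fold change of 0.014. With the replicate block, 14 were higher and 7 lower, beside 12.1% and 10.9% of all genes. The block counts of higher and lower genes were 4 and 1 for proline and lysine modification, 7 and 1 for folding and export, 1 and 0 for crosslinking and 1 and 2 for matrix partners. Among 14 tested genes that modify proline and lysine, P4HA1, a catalytic subunit of prolyl 4-hydroxylase, rose. It had 1928, 1997 and 1782 normalized counts in NT and 3042, 2727 and 2628 in OXA (log2 fold change 0.56, SE 0.10, adjusted p = 0.0218 in edgeR), and the groups did not overlap. The most abundant gene of this list, P4HB, the other subunit of that enzyme, differed by less than its spread (log2 fold change -0.02, adjusted p = 0.954 in edgeR). Among the 16 tested genes of folding and export, 2 rose. SERPINH1, which encodes the collagen chaperone HSP47, went from 3088 ± 453 to 4561 ± 261 (log2 fold change 0.56, SE 0.12, adjusted p = 0.0429 in edgeR), and TMEM131, a membrane protein that recruits procollagen for export, went from 5764 ± 337 to 7766 ± 178 (0.43, SE 0.083, adjusted p = 0.0296 in edgeR). CANX, the most abundant, had a log2 fold change of -0.06 (adjusted p = 0.804 in edgeR).

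Of the 7 tested crosslinking genes, LOXL4, a lysyl oxidase family member, rose from 99.1 ± 14.8 to 240.1 ± 6.41 normalized counts (log2 fold change 1.27, SE 0.17, adjusted p = 0.00894 in edgeR), and PXDN, the peroxidasin that links type IV collagen, was the most abundant and had a log2 fold change of -0.01 (adjusted p = 0.978 in edgeR). Of the 6 tested matrix partners, FN1, fibronectin, fell from 2395 ± 153 to 1380.1 ± 135 (log2 fold change -0.80, SE 0.11, adjusted p = 0.00975 in edgeR). None of the 8 tested genes of propeptide removal, the 7 collagen receptors or the 9 genes of collagen breakdown was called in edgeR, and the most abundant of each, FURIN, ITGB1 and CTSB, had log2 fold changes of 0.10, 0.07 and -0.16. DESeq2 called 0 genes of these 3 lists too. At an unadjusted p under 0.05, 1 gene of propeptide removal was higher and 1 lower, 1 receptor was lower, and 0 genes of breakdown were in either direction, beside 10.7% of all genes higher and 11.1% lower. The block called 1 and 1, 0 and 1, and 0 and 1, beside the 12.1% and 10.9% of all genes. With a single library left out, LOXL4 was called in 4 of 6 fits (lost without OXA library 1 or 2), FN1 in 5 of 6 (lost without OXA library 1), and P4HA1, SERPINH1 and TMEM131 each in 1 of 6, the fit without NT library 1.

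**Figure D5:**
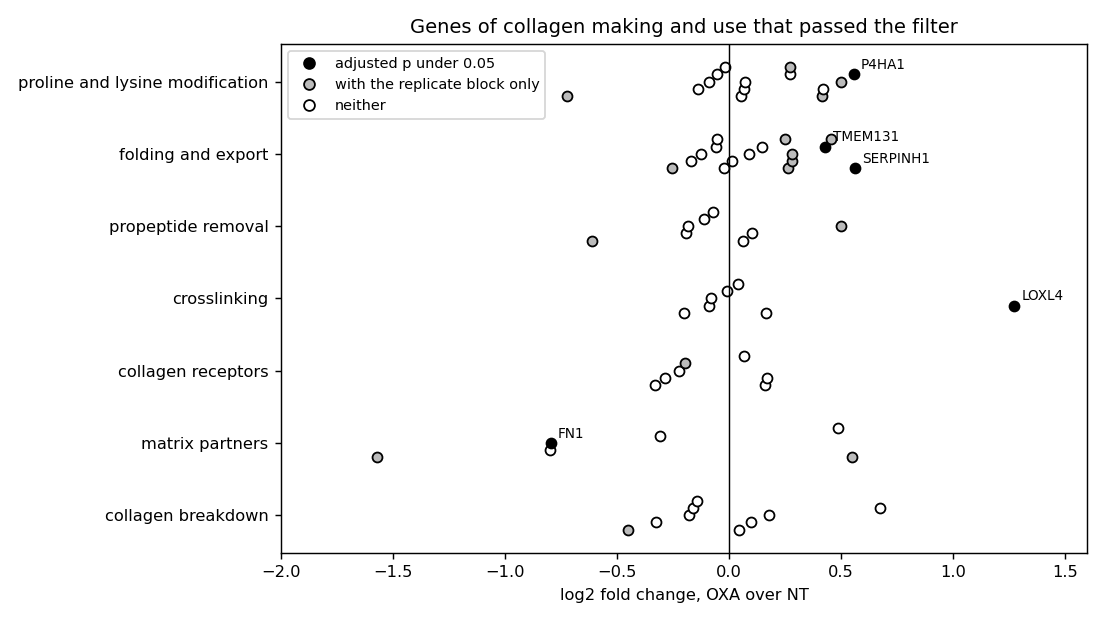
Log2 fold change of OXA over NT (horizontal axis) for the 67 tested genes of the 7 lists of collagen making and use (rows, with points spread vertically only to keep them apart). Black points, named, have an edgeR adjusted p under 0.05, grey points only with the replicate block. LOXL4 is the farthest to the right of the called genes, and FN1 is the only one of them to the left of 0.

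The labelled cell type was checked against marker lists. Of 10 markers of colon epithelium, 9 were tested and 0 were called in edgeR or DESeq2. At an unadjusted p under 0.05, 2 were higher, beside 10.7% of all genes. With the replicate block KRT8, KRT18 and CLDN4 were called higher and CDH1 lower, beside 12.1% and 10.9% of all genes. CDX1 was at 0 in all libraries, and the summed normalized counts lay between 75066 and 101940 in NT and 107401 and 120601 in OXA. Most of this sum came from the keratins KRT8 and KRT18 (means of 39182 and 30144 in NT). KRT20 (means of 46.1 in NT and 33.0 in OXA) and VIL1 (79.2 and 60.7) were low, and neither was called. Of 11 fibroblast markers, 7 were at or under 3 counts in every library and 5 of them, DCN, LUM, DPT, PDPN and THY1, were at 0. The summed level of the fibroblast list was 396 to 515 in NT and 970.3 to 1116 in OXA, of which ACTA2, a smooth muscle actin, rose from 205 ± 15.7 to 821 ± 122 (log2 fold change 2.00, SE 0.15, adjusted p = 0.00178 in edgeR). The other 2 fibroblast markers tested, VIM (-0.04, adjusted p = 0.952 in edgeR) and TCF21 (-0.05, adjusted p = 0.974 in edgeR), were not called. The 5 endothelial markers summed to 29.2 to 38.5 in NT and 21.8 to 42.8 in OXA, and the 1 tested was not called. The part of ACTA2 and of these lists in the collagen values was not tested.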

How the data were processed

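Total RNA was extracted from HCT116 cells with 3 samples a group, and poly(A) libraries were sequenced as paired reads of 100 bases. The submitters' processing notes name Trimmomatic 0.32, STAR 2.7.5b, RSEM 1.3.3, DESeq2 2.13 and GRCh38. The annotation and strand setting of the counting are not given in the sources used here. The authors deposited whole-number raw counts per gene, which were used as they stand and may be rounded estimates, and a normalized signal, which the authors obtained with factors that differ between genes and which served only as an alternative, on log2 with a pseudocount of 1.

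The filterByExpr filter of edgeR, with a minimum count of 10 and a minimum total of 15, left 13727 of the 19353 genes with a count. These were normalized by TMM and tested with edgeR's quasi-likelihood test (edgeR 4.0.16, limma 3.58.1, R 4.3.3), with p-values adjusted by Benjamini-Hochberg across the whole tested table. Standard errors are the estimate divided by the root of the F statistic. Alternatives were DESeq2 1.42.0, limma-voom, RLE factors, other filters, the authors' values, leaving out single libraries, and a replicate block. Removal of trends on GC content and length, and leaving out both libraries numbered 1, were added after the data had been seen. The edgeR fits with and without the block, limma-voom and DESeq2 were run on simulated counts without a GC trend or an outlying library. The other alternatives were not run on simulated counts. Positions, exon lengths and GC content came from GENCODE 44, which held all 44 collagens. Promoters came from RefSeq on GRCh38.p14.

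The members and lists were chosen with earlier results of these data known. Every collagen was accounted for, those tested being named with their values, and of the lists the called genes and the most abundant of each were named. The replicate numbers come from the sample titles, which do not say what a number stands for. Deviations of same-numbered NT and OXA libraries from their group means correlated at 0.55, 0.54 and 0.31, all over the limit of 0.1, and those of different numbers at -0.47 to 0.090. The block was therefore given where it changed a call or moved a count by over 1.5 times. Deviations from a group mean sum to 0, so the correlations depend on each other. They also include the trend with GC content that library 1 showed in both groups. Whether equal numbers mark pairs was not tested further. Within a group, no pair of libraries agreed within sampling noise (chi-square per gene 19.8 to 86.2), so none was counted as 1 sample. Since copies made by PCR cannot be recognised, counting error understates the true error. Low counts were compared with a floor of 3 counts per library. One gene of the lists, MRC2, was not analysed here. Protein sequences were not used here.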

Additional observations from a re-analysis of the deposited data

How the results depend on the processing

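COL12A1 kept its direction and call under every alternative run, including each library left out. No alternative shifted the median log2 fold change of all genes by over 0.1. Higher and lower calls were 3 and 0 for the collagens, 4 and 1 for the listed genes and 381 and 315 for all genes. DESeq2 gave 3 and 1, 7 and 2, and 636 and 635. The replicate block gave 3 and 1, 14 and 7, and 1664 and 1493. It changed the call of COL4A4 and of no other collagen. With GC and length trends removed the counts were 3 and 1, 13 and 8, and 1740 and 1203, and with the block as well 5 and 3, 19 and 14, and 3543 and 2459. Limma on the authors' normalized values gave 236 and 187 over all genes. Without both libraries numbered 1 the counts were 1 and 0, 2 and 1, and 219 and 165. With 1 library left out they ranged over 1 to 4 and 0 to 1, 0 to 7 and 0 to 4, and 66 to 623 and 19 to 571, the highest without NT library 1 and the lowest over all genes without OXA library 1. The cause of these shifts was not tested.

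Sign changes were seen in genes not called in edgeR without a block, of which COL18A1 and ITGB1 were called with the block and trends removed (-0.315 and 0.185). COL6A2 turned to 0.00147 with the filter of 50 counts, 0.115 in limma-voom, 0.0822 on the authors' values and 0.0974 with the block. Without both libraries numbered 1, COL16A1 was -0.132, COL7A1 -0.182 and FURIN -0.0684. CANX was 0.0560 and FURIN -0.00700 with trends removed, and 0.0557 and -0.00732 with the block as well, and PXDN was 0.000647 in limma-voom. With single libraries left out, log2 fold changes ranged from -0.142 to 0.521 for COL16A1, -0.591 to 0.171 for COL18A1, -0.478 to 0.0494 for COL21A1, -0.0816 to 0.490 for COL27A1, -0.00494 to 0.113 for COL5A2, -0.116 to 0.466 for COL6A1, -0.369 to 0.332 for COL6A2, -0.701 to 0.0355 for COL6A3, -0.671 to 0.773 for COL7A1, -0.0543 to 0.624 for COL9A2, -0.0450 to 0.635 for COL9A3, -0.144 to 0.0343 for CANX, -0.179 to 0.296 for FURIN, -0.0212 to 0.169 for ITGB1, -0.118 to 0.0227 for P4HB and -0.123 to 0.0676 for PXDN. Depth limited the 23 collagens below the filter, where single counts decide a ratio.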
